A study of Mus musculus with 8 samples.

Results

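The CpG-poor promoter peaks of freshly isolated muscle stem cells (MuSCs) were 1185 of the 103492 autosomal H3K56ac peaks in the merged peak list, which held 105600 peaks in all. A peak was taken when it covered the 5′ end of an autosomal protein-coding gene whose surrounding sequence was poor in CpG. The measure was the CpG observed/expected ratio, which divides the number of CpG dinucleotides by the number that the C and G content alone would give. It was computed over 500 bp on either side of the 5′ end in mm10. A 5′ end with a ratio below 0.4 was called CpG-poor and one at 0.6 or above CpG-rich, and those between were called intermediate. The 1185 peaks covered 1212 CpG-poor genes, since 27 of them lay over 2 CpG-poor 5′ ends.

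H3K56ac is an acetylation in the globular core of histone H3 that SIRT6, an NAD+-dependent deacetylase, removes. The study asked how this mark was distributed in MuSCs with and without SIRT6. It used C57BL/6 mice, with 2 Control and 2 Sirt6mKO H3K56ac libraries and as many input libraries, which are chromatin sequenced without an antibody. Control is labelled wild type, while the study elsewhere describes its controls as carrying floxed Sirt6 alleles without the Pax7 Cre. Sirt6mKO mice carried floxed Sirt6 and Cre driven from Pax7, the gene that defines MuSCs. MuSCs were sorted by surface proteins or by a reporter. The merged list gives positions only, without a value for any library, so genotypes could not be compared, and it holds no sequencing depth. A width is that of the union of overlapping peaks, from libraries that the list leaves unnamed. The paper reports a much smaller set of peaks for wild-type MuSCs, and a global increase of peaks in Sirt6mKO MuSCs. Shares and widths given here therefore describe the merged list and not the state of either genotype.

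CpG dinucleotides are lost from most of the mammalian genome because methylated cytosine mutates readily. CpG islands, which mostly stay unmethylated in the germ line, keep them, and most genes used by every cell start in such an island. Genes that serve 1 tissue more often start in CpG-poor sequence, where transcription leans on factors particular to the cell type and, at some genes, on a TATA box. MuSCs lie quiescent beneath the basal lamina of the myofibre and give rise to the myoblasts that repair it.

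The contrast on which the classes rest is visible in the 150 bases upstream of a gene's 5′ end. The sequences are from mm10 on the strand of the gene, read 5′ to 3′, with each CpG in capitals. For each gene group they show the CpG-poor gene with the widest peak. These are Calcr (chr6:3764715-3764864) for MuSC markers and Myf6 (chr10:107494738-107494887) for myogenic regulators. Eno3 (chr11:70657052-70657201) stands for the list of sarcomere and excitation-contraction genes and Zfp36 (chr7:28380254-28380403) for immediate early genes. Msgn1 (chr12:11208973-11209122) is shown for the widest of the CpG-poor promoter peaks.
Calcr: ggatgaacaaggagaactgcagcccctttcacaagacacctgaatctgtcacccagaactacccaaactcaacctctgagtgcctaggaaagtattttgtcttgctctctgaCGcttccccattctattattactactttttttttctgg
Myf6: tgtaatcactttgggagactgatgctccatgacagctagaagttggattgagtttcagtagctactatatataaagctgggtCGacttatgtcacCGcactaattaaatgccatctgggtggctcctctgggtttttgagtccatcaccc
Eno3: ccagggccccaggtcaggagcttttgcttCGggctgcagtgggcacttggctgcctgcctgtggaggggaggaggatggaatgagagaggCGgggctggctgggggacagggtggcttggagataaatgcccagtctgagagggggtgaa
Zfp36: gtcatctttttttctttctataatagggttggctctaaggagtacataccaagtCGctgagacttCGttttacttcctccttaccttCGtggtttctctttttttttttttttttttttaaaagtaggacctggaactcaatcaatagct
Msgn1: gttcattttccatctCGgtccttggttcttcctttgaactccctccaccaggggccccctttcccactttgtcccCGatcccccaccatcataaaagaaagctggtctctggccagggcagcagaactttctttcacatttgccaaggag
Each held 1 to 3 CpG in these 150 bases. The next pair is CpG-rich and also lay under wide peaks, Pax7 (chr4:139833529-139833678) and the Notch receptor gene Notch3 (chr17:32166853-32167002).
Pax7: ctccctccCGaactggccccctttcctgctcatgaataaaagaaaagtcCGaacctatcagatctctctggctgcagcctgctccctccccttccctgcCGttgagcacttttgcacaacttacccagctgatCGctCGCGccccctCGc
Notch3: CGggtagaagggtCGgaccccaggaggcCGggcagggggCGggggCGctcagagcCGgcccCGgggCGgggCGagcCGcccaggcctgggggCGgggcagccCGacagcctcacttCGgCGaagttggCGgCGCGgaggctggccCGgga
Pax7 held 7 CpG and Notch3 18. The last pair is CpG-poor and lay under no peak: Acta1 (chr8:123894752-123894901), which encodes skeletal muscle actin, and Ptprc (chr1:138175709-138175858), which encodes the leukocyte protein CD45. Both were chosen after their values were seen.
Acta1: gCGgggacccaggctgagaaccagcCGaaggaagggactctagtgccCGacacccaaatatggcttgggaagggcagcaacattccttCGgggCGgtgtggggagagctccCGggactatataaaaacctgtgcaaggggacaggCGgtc
Ptprc: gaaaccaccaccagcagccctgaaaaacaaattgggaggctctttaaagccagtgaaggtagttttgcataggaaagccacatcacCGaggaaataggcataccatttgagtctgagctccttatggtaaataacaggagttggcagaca
Acta1 held 7 CpG here, as many as Pax7, and Ptprc held 1.

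A minority of CpG-poor genes carried the mark at the 5′ end, and nearly all CpG-rich genes did. Of 8132 CpG-poor 5′ ends, 1212 lay under a peak (14.9%, Wilson 95% interval 14.1 to 15.7%). Of 2852 intermediate ones 2002 did (70.2%, 68.5 to 71.8%), and of 9819 CpG-rich ones 8906 did (90.7%, 90.1 to 91.3%). Over all 20803 autosomal coding genes with a ratio the share was 58.3%. The CpG-poor share minus the CpG-rich share was -75.8 percentage points (Newcombe 95% interval -76.7 to -74.8), and the former was the lower of the pair on all 19 autosomes. Genes are not biological replicates, so each of these intervals covers counting error only.

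**Figure D1:**
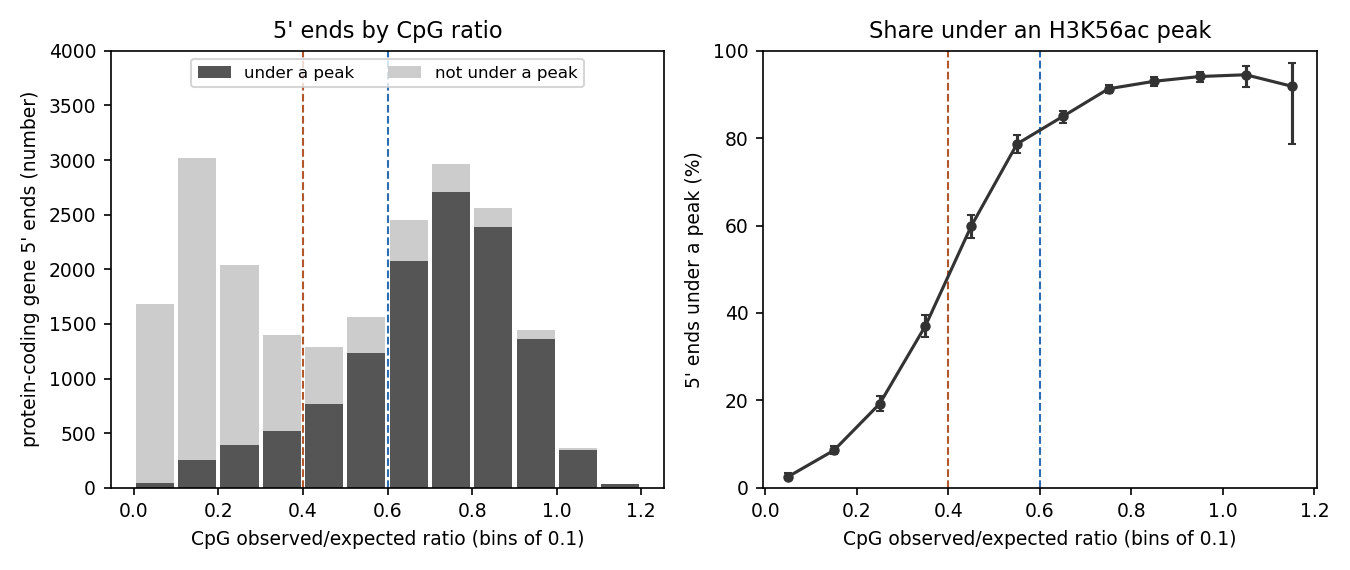
Left, number of autosomal coding 5′ ends (vertical axis) in bins of the CpG observed/expected ratio (horizontal axis), split into those under an H3K56ac peak (dark) and those not (light). Right, percent of each bin under a peak with Wilson 95% intervals; dashed lines mark 0.4 and 0.6, and the share rises from 2.56% in the lowest bin to 94.5% between 1.0 and 1.1.

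The share under a peak rose without a step across the 0.4 threshold. It was 2.56% of 1679 genes below a ratio of 0.1, 8.58% of 3019 between 0.1 and 0.2, 19.2% of 2037 between 0.2 and 0.3, and 37.1% of 1397 between 0.3 and 0.4. Just inside the threshold, between 0.38 and 0.4, 117 of 262 5′ ends lay under a peak, and just outside it, between 0.4 and 0.42, 116 of 248 did. The median width was 2686 bp inside and 2416 bp outside. Covered CpG-poor genes therefore lay nearer the threshold than uncovered ones, with a median ratio of 0.278 against 0.162, a median of 17 against 8 CpG in the window, and a median G+C content of 50.8% against 45.1%. Repeated sequence went with fewer peaks, since bases marked as repeats made up a median of 11.8% of the covered and 14.1% of the uncovered windows. Of the 333 CpG-poor windows in which repeats made up over 50%, 14 lay under a peak (4.20%, 2.52 to 6.93%). The reads were kept only with a single alignment, and the part of that step in the share was not tested.

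CpG-poor promoter peaks were more variable in width than CpG-rich ones and on balance narrower. Their median was 2702 bp (95% interval 2512 to 2887), with quartiles of 1332 and 4600 bp and a range from 272 to 33132 bp. The 7814 CpG-rich promoter peaks that covered no CpG-poor 5′ end had a median of 3581 bp (3533 to 3628) and quartiles of 2593 and 4960 bp. The ratio of the medians was 0.755 (0.701 to 0.807), a log2 ratio of -0.41. In 61.8% of all pairs of 1 peak from each class the CpG-rich peak was the wider (DeLong 95% interval 59.8 to 63.8%), and the CpG-poor median was the lower on 18 of 19 autosomes, chromosome 11 being the exception. The 1760 intermediate promoter peaks that covered no CpG-poor or CpG-rich 5′ end had a median of 2607 bp (2505 to 2725). A median below the CpG-rich one was therefore not particular to the CpG-poor class. The spread of log2 width was 1.22 (SD) in the CpG-poor, 0.93 in the intermediate and 0.83 in the CpG-rich class.

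The CpG-poor and CpG-rich classes differed most in their narrow peaks. Peaks under 1 kb made up 17.8% of the CpG-poor class (211 peaks) and 2.59% of the CpG-rich class (202 peaks), a difference of 15.2 percentage points (13.1 to 17.5). Peaks of at least 10 kb made up 4.05% (48 peaks) and 3.19% (249 peaks), and the interval of that difference, -0.201 to 2.19 percentage points, held 0. Across the list as a whole, the median autosomal peak was 981 bp wide, so that a typical CpG-poor promoter peak was wider than most peaks. A wide interval is more likely to cover a given base, so the rule by which peaks were taken itself favours this difference.

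Some peaks of the class also covered a CpG-rich start. A transcript start of a coding gene with a ratio of 0.6 or above lay under 182 of the 1185 peaks (15.4%). For 133 of the 1212 genes that start was another start of the gene itself, and for 52 it belonged only to another gene. These 182 peaks had a median width of 4516.5 bp (4162 to 5159), which was 1.26 times (1.16 to 1.44) the CpG-rich median, and none was under 1 kb. The other 1003 peaks had a median of 2262 bp (2114 to 2420), 0.632 times the CpG-rich median (0.590 to 0.677), and were the narrower on all 19 autosomes. Of these 1003 peaks, 21.0% were under 1 kb. Widths of these purely CpG-poor peaks did not follow the ratio within the class, with medians of 2560 bp between 0.1 and 0.2, 2051.5 bp between 0.2 and 0.3 and 2292 bp between 0.3 and 0.4, whose intervals overlapped.

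**Figure D2:**
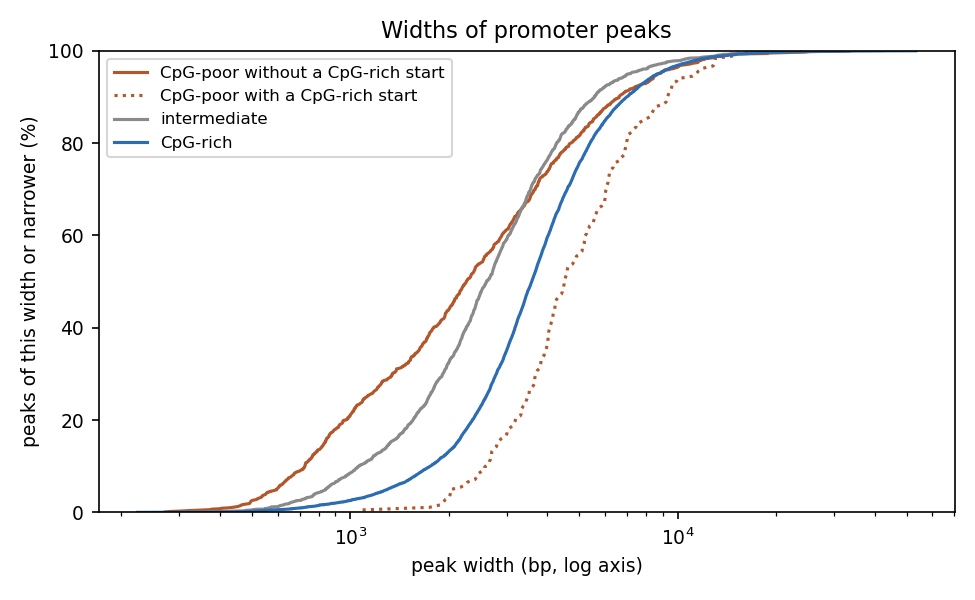
Cumulative share of peaks (vertical axis, %) against peak width (horizontal axis, bp, log scale) for CpG-poor promoter peaks without and with a CpG-rich coding start beneath them, intermediate peaks and CpG-rich peaks. The 1003 peaks without such a start lie to the left of the CpG-rich curve except among the widest, and the 182 with one lie to the right of the CpG-rich curve.

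CpG-poor promoter peaks also had close neighbours more often. The nearest other peak was less than 1 kb away for 688 of them (58.1%, 55.2 to 60.8%) and for 4062 CpG-rich promoter peaks (52.0%, 50.9 to 53.1%). When intervals less than 1 kb apart were joined, the medians became 4212 and 4434 bp and the interval of their log2 ratio of -0.07 held 0 (-0.15 to 0.03). With peaks over a CpG-rich start also left out, the joined CpG-poor peaks were again the narrower, with a log2 ratio of -0.32 (-0.43 to -0.23).

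Peaks in both classes reached farther into the gene than upstream of it. From the 5′ end of a covered CpG-poor gene the peak ran a median of 816.5 bp upstream (742 to 910) and 1492 bp downstream (1352 to 1575). For CpG-rich genes the medians were 1413 and 1963 bp. The downstream arm was the longer for 67.1% of CpG-poor genes (64.4 to 69.7%) and 66.7% of CpG-rich genes (65.7 to 67.7%), which did not differ beyond counting error. A 5′ end within 100 bp of the downstream border of its peak, so that the peak lay almost wholly upstream, was seen for 48 CpG-poor genes (3.96%, 3.00 to 5.21%) and 60 CpG-rich genes (0.674%, 0.524 to 0.866%). The opposite case, within 100 bp of the upstream border, was seen for 93 CpG-poor genes (7.67%, 6.30 to 9.31%) and 350 CpG-rich genes (3.93%, 3.55 to 4.35%). Either border was thus closer more often in the CpG-poor class.

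**Figure D3:**
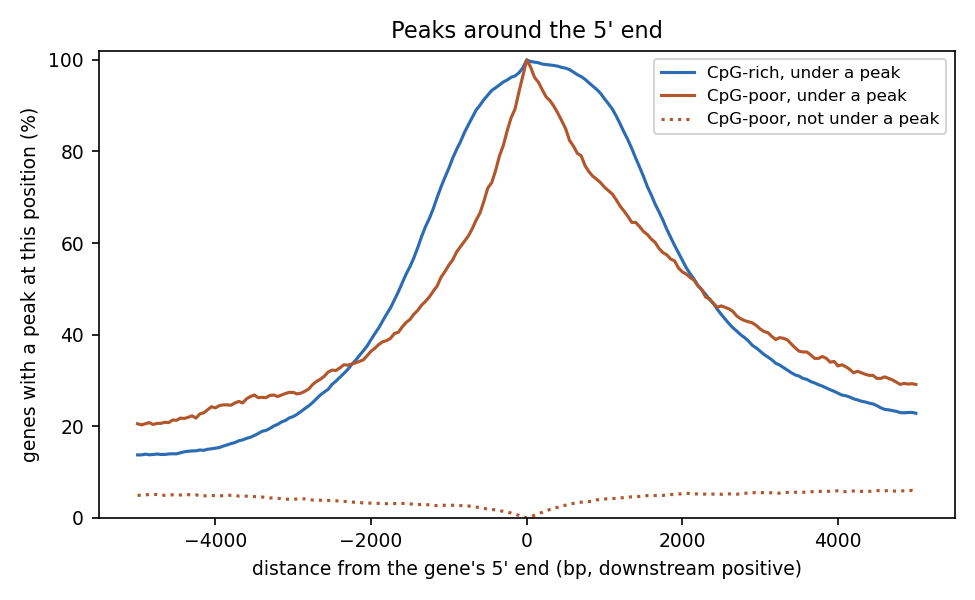
Percent of genes with a peak at each position (vertical axis) within 5000 bp of the 5′ end (horizontal axis, bp, downstream positive), for CpG-rich and CpG-poor genes whose 5′ end lay under a peak and for CpG-poor genes whose 5′ end did not. The CpG-poor curve falls from a sharp summit to 53.8% at 1050 bp upstream, where the CpG-rich curve is at 74.4%, yet lies above it near both ends of the plot.

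Most uncovered CpG-poor genes had no peak within 5 kb. Their 5′ ends lay a median of 43691 bp from the nearest peak, and 1469 of 6920 (21.2%) had one within 5 kb. Clustered gene families of the body surface, senses and defence made up part of this set. Of the 2061 CpG-poor genes in the receptor, keratin, defensin, interferon, CD antigen and lectin, cytochrome P450 and serpin lists, 44 were covered (2.13%, 1.59 to 2.85%), against 1168 of the other 6071 (19.2%, 18.3 to 20.3%).

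The functions of the genes were described with 30 lists of named genes or gene families, 29 of which held a CpG-poor gene. They took in 204 of the 1212 covered CpG-poor genes, and 1008 were in none. The Wilson interval of the share under a peak lay above the 14.9% of all CpG-poor genes for 12 lists and below it for 3, and held it for 14. The lists were chosen with earlier results of these data known and are a description.

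**Figure D4:**
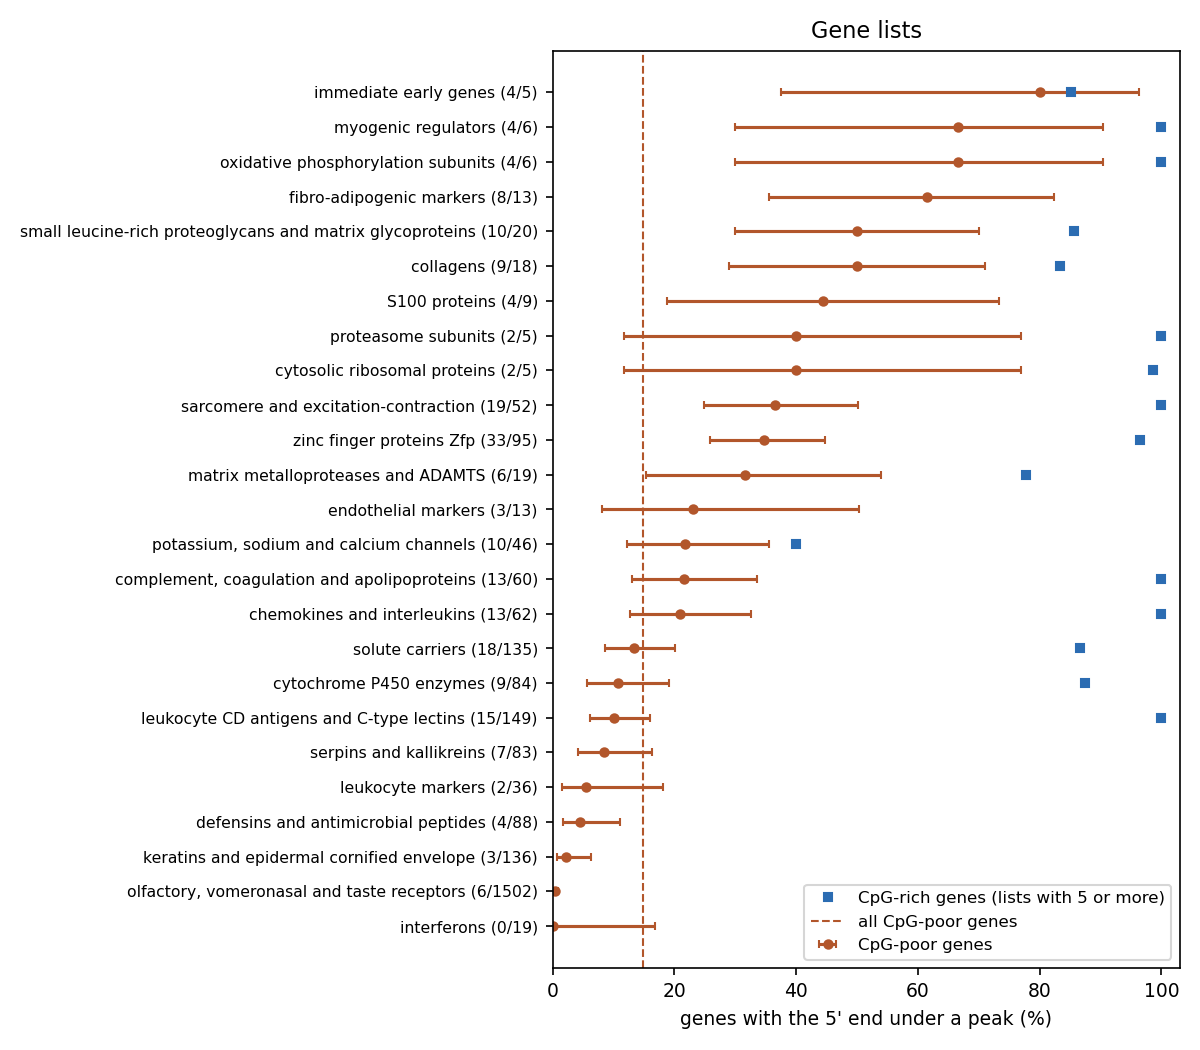
Percent of genes with the 5′ end under a peak (horizontal axis) in each list with at least 5 CpG-poor genes, as circles with Wilson 95% intervals for CpG-poor genes and squares for CpG-rich genes. Covered and total CpG-poor genes are in brackets and the dashed line is the 14.9% of all CpG-poor genes; matrix and muscle lists lie to its right and receptors, keratins and defensins to its left.

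Genes that mark MuSCs were covered in every CpG class. All 20 of the MuSC markers lay under a peak, 3 of them CpG-poor, 7 intermediate and 10 CpG-rich. Over all genes of these classes the shares were 14.9%, 70.2% and 90.7%. The interval for the 3 CpG-poor markers ran from 43.9 to 100%. The CpG-poor ones were Calcr, the calcitonin receptor that holds MuSCs in quiescence, Vcam1, an adhesion protein used to sort them, and Cdh15, the muscle cadherin. The Calcr peak spanned 25343 bp (chr6:3740485-3765827), 24229 bp of it downstream of the 5′ end, and covered exons 1 to 3 of the gene. The Vcam1 peak spanned 12012 bp, of which 348 bp lay upstream, and reached exon 5. That of Cdh15 was 599 bp wide and ended 68 bp into the gene. Calcr and Vcam1 thus had peaks several times the class median and Cdh15 one well below it.

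Of the 6 CpG-poor genes in the list of myogenic regulators 4 lay under a peak (66.7%, 30.0 to 90.3%). Among these 4, Jsrp1 is no regulator. Myf6, a bHLH factor that acts late in muscle differentiation, lay under a peak of 30239 bp (chr10:107477063-107507301) that also covered the 5′ end of the neighbouring Myf5, which encodes a bHLH factor of committed MuSCs. No coding start beneath it had a ratio above 0.406. Jsrp1, a protein of the junction between T-tubule and sarcoplasmic reticulum, had a peak of 2530 bp. Myog, the bHLH factor of terminal differentiation, had one of 767 bp that began 51 bp upstream of its 5′ end, and Mef2c, a MADS-box partner of the bHLH factors, one of 674 bp. The fusion genes Mymk and Mymx were uncovered, with the nearest peak 451 and 1560 bp away. All 16 CpG-rich regulators were covered (80.6 to 100%), an interval that held the 90.7% of all CpG-rich genes.

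The sarcomere and excitation-contraction list, called contractile here, was the muscle list in which CpG-poor starts were most usual. It also holds genes of muscle metabolism, such as Eno3 and Pygm. Of the 64 sarcomere and excitation-contraction genes 52 were CpG-poor (81.2%), and 19 of these were covered (36.5%, 24.8 to 50.1%). They were 1.57% of covered CpG-poor genes and 0.0674% of covered CpG-rich genes, and the interval of the difference ran from 0.933 to 2.37 percentage points. Sequence class gave part of this contrast before any peak was considered, since 52 of these genes were CpG-poor and 6 CpG-rich. The widest of their peaks lay over Eno3, the muscle enolase (8388 bp), Cacng1, a subunit of the muscle calcium channel (8085 bp), Ankrd1, a stress-responsive ankyrin repeat protein (5742 bp), Pygm, muscle glycogen phosphorylase (5222 bp), and Tnnc1, slow troponin C (5159 bp). Beneath the Eno3 and Tnnc1 peaks lay CpG-rich starts, with ratios of 0.861 and 0.717, and the other 17 genes had none.

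Fast and slow fibre genes were both among the covered ones. Peaks over fast-fibre genes measured 4349 bp at Myh1 and 1024 bp at Myh4, both fast myosin heavy chains, 3324 bp at Atp2a1, the fast calcium pump, 3139 bp at Actn3, 3010 bp at Casq1, the calcium store protein, 1342 bp at Tnnc2, 1296 bp at Mybpc2 and 497 bp at Tnni2. Those over slow-fibre genes measured 3304 bp at Myh7 and 2942 bp at Tnnt1. Tcap, the titin cap, had 3687 bp, the caveolin gene Cav3 1066 bp and Sln, the sarcolipin gene, 459 bp. All of these peaks but those at Myh1 and Tcap were narrower than the CpG-rich median, and at Myh4 and Mybpc2 the peak ended 99 and 46 bp into the gene.

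The 33 uncovered contractile genes were mostly close to a peak. Their median distance was 1448 bp, and 27 of 33 (81.8%) had a peak within 5 kb of the 5′ end. The peak stopped 11 bp short at Ckm, the muscle creatine kinase, 340 bp at Ttn, which encodes titin, 219 bp at Mb, which encodes myoglobin, and 433 bp at Actc1, cardiac actin. Acta1 was 2342 bp from one. Leukocyte markers, by comparison, had a median distance of 17851 bp, and 7 of 34 (20.6%) had a peak within 5 kb.

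Immediate early genes, which are induced within minutes of a stimulus and also by tissue dissociation, were mostly CpG-rich (27 of 34). Of those 27 genes, 23 were covered (85.2%, 67.5 to 94.1%), an interval that held the 90.7% of all CpG-rich genes. Of the 5 CpG-poor ones 4 were covered (80%, 37.6 to 96.4%), against 14.9% of all CpG-poor genes. The peaks measured 9081 bp at Zfp36, an RNA-binding protein that destabilises AU-rich transcripts, 6007 bp at the phosphatase gene Dusp1, 5271 bp at Csrnp1 and 4552 bp at Maff. Beneath each of these 4 lay a CpG-rich coding start, with ratios of 0.603, 0.644, 0.808 and 0.872, so none belonged to the purely CpG-poor peaks. Atf3 was uncovered and had a peak 1147 bp away.

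The list of study genes was a short one of 7 autosomal genes, Utrn, Mstn, Sirt6, Pax7, Dab2, Hspa2 and Ptpn22, and took in only a few of the genes that the study names. Dab2 and Ptpn22 were CpG-poor, and both were uncovered. The nearest peak lay 3277 bp from the 5′ end of Dab2, an endocytic adaptor, and 6258 bp from that of Ptpn22, a phosphatase of lymphocytes. The 3 CpG-rich and 2 intermediate ones were covered. Other genes in the study's longer lists were CpG-poor and covered, among them 4 picked here after their values were seen. Their peaks measured 15100 bp at Cryab, 7146 bp at Mgst1, a microsomal glutathione transferase, 6837 bp at Casp12, a caspase, and 4649 bp at Axl, a receptor tyrosine kinase.

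Markers of cells that the sort should remove differed by cell type. Among CpG-poor leukocyte markers 2 of 36 were covered (5.56%, 1.54 to 18.1%), Spi1, the myeloid factor PU.1 (5513 bp), and Cd14, the endotoxin co-receptor (2712 bp). Defining genes such as Ptprc, Itgam and Cd3e were uncovered. Of the 13 CpG-poor genes in the endothelial list 3 were covered (23.1%, 8.18 to 50.3%). They were the angiopoietin receptor gene Tek (12975 bp), Ly6e (7999 bp) and Eng, which encodes endoglin (2559 bp). Pecam1 and Cdh5 were uncovered. Of 13 markers of fibro-adipogenic progenitors, the resident fibroblasts of muscle, 8 were covered (61.5%, 35.5 to 82.3%). Their peaks measured 9775 bp at Dpt, 6627 bp at Col3a1, 5357 bp at Clec3b, 4329 bp at Apod, 3674 bp at Dcn, 2063 bp at Lum, 1576 bp at Col1a1 and 623 bp at Pi16. The defining genes Pdgfra and Ly6a, which encodes the Sca1 protein used to exclude these cells, were uncovered, with a peak 462 and 7962 bp away. The paper reports that sorted cells, when analysed again, were well short of full purity, and it does not name the other cells. The part of such cells in the peaks was not tested.

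Extracellular matrix genes had shares of 31.6 to 50.0% under a peak. Of 18 CpG-poor collagen genes 9 lay under a peak (50.0%, 29.0 to 71.0%), the widest at Col6a1 (12559 bp), a collagen of the MuSC niche, Col5a2 (7420 bp) and Col3a1 (6627 bp). Of 20 small leucine-rich proteoglycan and matrix glycoprotein genes 10 did (50.0%, 29.9 to 70.1%). Sparc, a collagen-binding glycoprotein, had 13913 bp, Thbs2, a thrombospondin, 11629 bp and Prelp 9995 bp. The median width in that list was 8834.5 bp, and 6 of the 10 were at least 5 kb wide. Matrix proteases of the MMP and ADAMTS families were covered in 6 of 19 cases, with 8249 bp at Adamts5, 5515 bp at Adamts4 and 4405 bp at Adamtsl2, an ADAMTS-like protein. Col3a1, Col1a1, Dcn and Lum are also in the fibro-adipogenic list, so the lists share genes.

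The 10 CpG-poor genes with the widest peaks free of a CpG-rich start had peaks between 14480 and 33132 bp. The first was Msgn1, a bHLH factor of presomitic mesoderm, at chr12:11200046-11233177, with 24205 bp of the peak upstream of the 5′ end and 8926 bp downstream. Myf6 and Calcr came next, and then Lmod2, an actin filament nucleator of striated muscle, with 24412 bp. Filip1l had 21460 bp, Ctnnd1, which encodes the cadherin partner p120 catenin, 18787 bp, and Sod3, the extracellular superoxide dismutase, 18769 bp. Cryab and Hspb2, neighbouring small heat shock protein genes on opposite strands, shared 1 peak of 15100 bp. Palmd closed the series with 14480 bp. Of these 10 genes, Myf6 and Calcr belong to one of the lists.

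Most lists of signalling, secreted and membrane proteins had an interval that held the 14.9% of the whole class. Of 62 CpG-poor chemokine and interleukin genes 13 were covered (21.0%, 12.7 to 32.6%), the widest at Ccl11 (11023 bp), Ccl2 (5065 bp) and Il15 (4015 bp). Complement, coagulation and apolipoprotein genes had 13 of 60 (21.7%, 13.1 to 33.6%), led by Apoe (8412 bp) and Apobec3 (6813 bp), the latter a cytidine deaminase that the name pattern of the list took in. Solute carriers, the membrane transporters, had 18 of 135 (13.3%, 8.60 to 20.1%), led by Slco2a1 (8450 bp) and Slc27a1 (6080 bp, over a CpG-rich start). The Slco2a1 peak covered the gene's 5′ end but no start of a protein-coding transcript. Ion channels had 10 of 46 (21.7%, 12.3 to 35.6%), led by Cacng1 and then Scn7a (4079 bp) and Kcnc2 (2654 bp). S100 proteins, small calcium sensors, had 4 of 9 (44.4%, 18.9 to 73.3%), with 11550 bp at S100a4, 6633 bp at S100a16 and 6073 bp at S100a1.

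Zinc finger genes named Zfp were a list with many members in both classes. Of 95 CpG-poor ones 33 were covered (34.7%, 25.9 to 44.7%) and of 197 CpG-rich ones 190 (96.4%, 92.9 to 98.3%). The widest CpG-poor peaks were those of Zfp366 (14145 bp), Zfp36 (9081 bp) and Zfp52 (7673 bp). Solute carriers gave a like contrast, with 143 of 165 CpG-rich genes covered (86.7%). Other lists had smaller gaps, such as ion channels, with 21.7% of CpG-poor and 40.0% of CpG-rich genes covered (27.6 to 53.8%), and the intervals overlapped.

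Sensory, epidermal and defence families held many of the CpG-poor genes without a peak. Of 1502 CpG-poor olfactory, vomeronasal and taste receptor genes 6 were covered (0.399%, 0.183 to 0.869%), the widest peaks lying over Tas2r143 (8908 bp), Olfr455 (2973 bp) and Tas1r1 (2283 bp, with a CpG-rich start of another gene beneath it). Keratin and cornified envelope genes had 3 of 136 covered, Krt10 (7353 bp, over a CpG-rich start), Krt80 (4563 bp) and Krtap16-1 (1854 bp). Defensin and antimicrobial genes had 4 of 88, led by Defb25 (7362 bp), the lipocalin genes Lcn11 (7316 bp) and Lcn5 (3752 bp), and interferons 0 of 19, which allows a share of up to 16.8% by the Wilson interval. Cytochrome P450 enzymes had 9 of 84, led by Cyp2d22 (11739 bp), Cyp2j6 (4703 bp) and Cyp2j9 (4207 bp), and serpins and kallikreins 7 of 83, among them Serpinb9 (5603 bp) and Serpinf1 (3700 bp). Leukocyte CD antigens and C-type lectins had 15 of 149, led by Clec3b (5357 bp), Clec2d (5095 bp) and Cd28 (4971 bp). No start of a protein-coding transcript lay under the Cd28 peak. The middle of the uncovered receptor genes lay 253284 bp from a peak.

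Housekeeping lists held few CpG-poor genes. DNA replication and mitosis genes had none among 40. Cytosolic ribosomal protein genes had 5 of 81, of which Rps14 (6904 bp) and Rps2 (3018 bp) were covered, both over a CpG-rich start with ratios of 0.918 and 0.899. They were 0.165% of covered CpG-poor genes and 0.808% of covered CpG-rich genes, a difference of -0.643 percentage points (-0.884 to -0.178). Before any peak was considered, 5 of these genes were CpG-poor and 73 CpG-rich, so sequence class already gave this contrast. Proteasome subunits had 5 of 38, with Psmb10 (2770 bp), an inducible subunit of the immunoproteasome, and Psmd5 (1025 bp) covered. Oxidative phosphorylation subunits had 6 of 78, of which 4 were covered, among them Atp5j2 (4496 bp) and Cox8b (1304 bp), a muscle form of a cytochrome c oxidase subunit. Of the histone genes 1 was CpG-poor, Hist1h1d (5290 bp, over a CpG-rich start), and of 4 CpG-poor Hox genes Hoxb2 (869 bp) was covered. The Hoxb2 peak lay over no start of a protein-coding transcript.

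Sequence motifs were counted to describe what covered CpG-poor promoters held besides CpG. A TATA box was scored as TATAAA on the strand of the gene with its first base 40 to 20 bases upstream. The position was taken from the annotated 5′ end and not from a measured start, so a box at another start was not scored. It was present at 22 of 1212 covered (1.82%, 1.20 to 2.73%) and 376 of 6920 uncovered CpG-poor 5′ ends (5.43%, 4.92 to 5.99%), a difference of -3.62 percentage points (-4.45 to -2.57). CpG-rich 5′ ends had 0.774% and all 20803 had 2.48%. Acta1, printed above, was one of the uncovered genes with the box, whose letters lie near the end of its sequence. The difference was below 0 in each of 5 ranges of G+C content, and its interval held 0 in 2 of them.

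**Figure D5:**
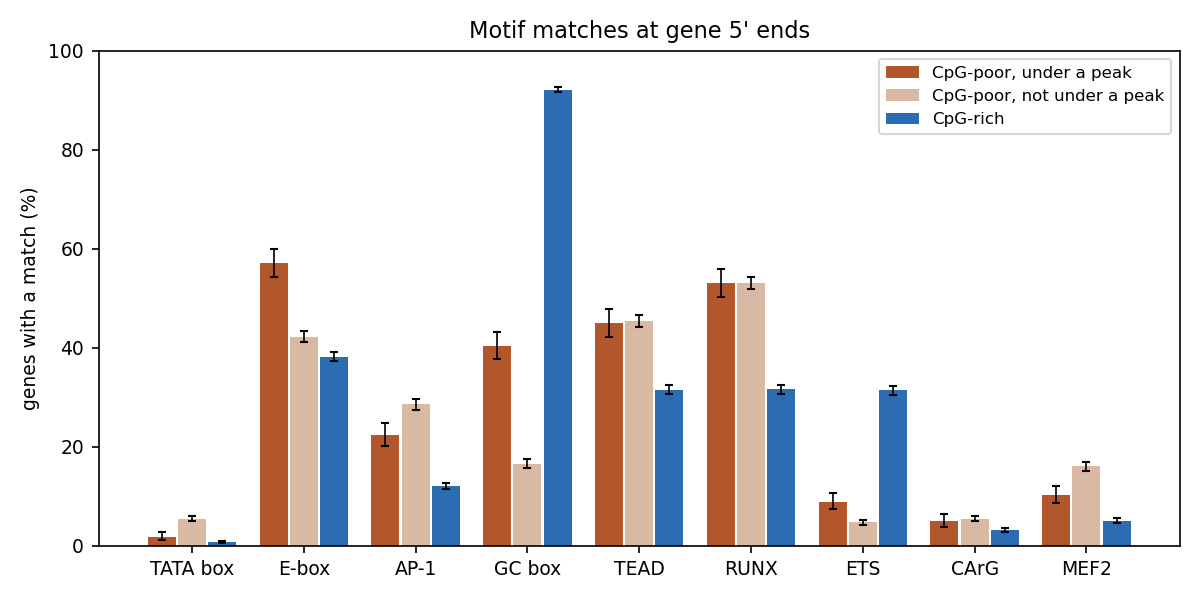
Percent of genes with at least 1 match (vertical axis) for 9 motifs (horizontal axis), for CpG-poor 5′ ends under a peak and not under a peak and for CpG-rich 5′ ends; error bars are Wilson 95% intervals. The E-box bar is highest for covered CpG-poor genes (57.2%), and the GC box bar rises from 16.6% to 40.3% to 92.1% across the groups.

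The other motifs were scored on both strands within 500 bases of the 5′ end. The E-box CAGCTG, a palindrome bound by myogenic bHLH factors among others, was present at 57.2% of covered (54.4 to 59.9%) and 42.2% of uncovered CpG-poor 5′ ends (41.0 to 43.4%), and at 38.2% of CpG-rich ones and 41.8% of all. The difference was 14.97 percentage points (11.93 to 17.96), and it was above 0 in each of 5 ranges of G+C content. It ran from 17.6 points below 42% G+C (43.0% of 79 covered against 25.5% of 2329 uncovered genes) to 2.10 points at 54% or above. Its interval held 0 in 3 of the 5 ranges. The GC box GGGCGG, which Sp1 and its relatives bind and which itself holds a CpG, was present at 40.3% of covered (37.6 to 43.1%), 16.6% of uncovered, 92.1% of CpG-rich and 61.4% of all 5′ ends, and the difference of 23.8 points (20.9 to 26.7) lay between 6.24 and 17.4 points within the ranges, each interval above 0. The ETS motif CCGGAAG, which also holds a CpG, was at 8.91% of covered, 4.70% of uncovered, 31.4% of CpG-rich and 19.5% of all, and the interval of its difference held 0 in 4 of the 5 ranges.

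The other 5 motifs had lower shares at covered than at uncovered CpG-poor promoters or shares within counting error of each other in this window. The AP-1 motif TGANTCA, where N is any base, was present at 22.4% of covered, 28.5% of uncovered and 18.8% of all 5′ ends and at 1178 of the 9819 CpG-rich ones, a difference of -6.10 points (-8.60 to -3.45) whose interval held 0 in 4 of the 5 ranges of G+C content. The MEF2 motif was present at 10.2%, 16.0%, 5.08% and 9.44%, and its difference of -5.78 points was between -0.188 and 2.86 points within the ranges, with an interval above 0 (0.00691 to 6.28) at 54% G+C or above. The TEAD motif CATTCC was present at 44.97%, 45.4%, 31.5% and 38.2% and the RUNX motif TGTGGT at 53.1%, 53.1%, 31.6% and 41.6%, with differences of -0.423 (-3.44 to 2.62) and 0.0428 (-3.01 to 3.08) points. From 200 bases upstream to 50 downstream these differences became 2.94 (0.755 to 5.31) and -4.67 (-6.81 to -2.35) points, so that both calls depend on the window. The CArG box, bound by SRF, was present at 4.95%, 5.45%, 3.19% and 4.22%. A match to these letters is a description of the sequence and no evidence of binding.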

How the data were processed

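The study's ChIP-seq libraries of H3K56ac and input came from sorted MuSCs, 8 in 4 groups, prepared with an Ion kit. According to the methods, reads were checked with FastQC, trimmed, aligned to mm10 with bowtie keeping single alignments, freed of duplicates, and passed to MACS2. Blacklisted regions were removed and overlapping peaks merged with GenomicRanges. The submitters' processing notes also name SAMtools and deepTools. The authors deposited 1 merged list, whose score column is 0 in every row. It has 0 columns of values per sample. Starts and ends, the other deposited values, are counted from 1 here.

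Gene 5′ ends were those of GENCODE vM21 protein-coding genes, and sequence was GRCm38.p6, the same build as mm10. A peak counted when it overlapped the 5′ end by at least 1 bp. The ratio was computed over 1001 bp, and 4 autosomal genes with more than 10% unknown bases had none. Wilson, Newcombe, DeLong and order-statistic 95% intervals were used, with no p-values, because the list holds no replicates. Coding starts beneath peaks were those of protein-coding transcripts. A gene's 5′ end need not be such a start, and peaks over none were counted among those without a CpG-rich start.

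List symbols were matched to GENCODE, older ones through RefSeq synonyms, and list genes outside the autosomes were left out. Members and lists were chosen with earlier results of these data known. Named genes were the covered CpG-poor genes of the muscle, immediate early and cell marker lists, the 3 with the widest peaks in other lists, and the 10 with the widest peaks over no CpG-rich start; uncovered genes were named after their values were seen. A few genes that this rule names are not reported here. Functions were tested on simulated data. Python 3.11.15, NumPy 2.4.6, SciPy 1.17.1 and pandas 2.3.3 were used.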

Additional observations from a re-analysis of the deposited data

How the results depend on the processing

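No paired analysis was possible because replicates were merged before deposit and left no separate values. The first 13 alternatives changed the threshold, the window, the ratio formula, the set of 5′ ends, the intervals, the distance that counted as covered, the gene families and the chromosomes. A further one, joining with CpG-rich starts left out, was chosen after seeing the data. Over these 14, the number of CpG-poor promoter peaks lay between 906 and 1533, and the share under a peak minus the CpG-rich share lay between -78.3 and -71.5 percentage points. The CpG-rich peak was the wider in 52.9 to 68.5% of pairs, and each of those intervals lay above 50%. The median width of 2702 bp was 2367 bp with 1000 bp on either side, 2292 bp with all coding transcripts, 2262 bp without peaks over a CpG-rich start, 2283 bp with peaks within 500 bp counted, 4212 bp with intervals less than 1 kb apart joined, and 3552 bp with joining and those peaks left out. The log2 ratio of median widths was between -0.69 and -0.0741 and lost its call, at -0.0741, when intervals were joined. Motif differences kept their call in 22 of 26 alternatives. In the window from 200 bp upstream to 50 bp downstream, that of TEAD turned to 2.94 and that of RUNX to -4.67 points, and both intervals then lay off 0. Sign also turned, within intervals that held 0, for TEAD (2.10) and RUNX (-0.628) below a ratio of 0.35 and for RUNX (-2.51) and CArG (0.262) without the clustered families. That of MEF2 fell to -1.67 points without the clustered families and to -1.18 points in the short window, and both intervals then held 0. The causes were not tested. The list holds no depth, and library depths were not used here.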
